A study of Mus musculus with 20 samples.

Results

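The genes described here are the 10 named members of de novo purine synthesis, Prps1, Prps2, Ppat, Gart, Pfas, Paics, Adsl, Atic, Impdh2 and Gmps, found by gene symbol among the 37557 genes shared by all deposited tables. All 10 were among the 13436 genes that passed the filter on low values. They were followed by RNA-seq in spherical neural masses grown from ESD3 cells, a mouse embryonic stem cell line of strain 129s2/SvPas kept on embryo fibroblast feeders, while these were differentiated toward dopaminergic neurons. The control line carried a short hairpin RNA against luciferase and the HPRT knockdown line one against HPRT. Both hairpins came in a retroviral vector, and per the study's methods both lines were selected with puromycin and the hairpin had been designed against the human gene. The labels name no second line of either kind, and the methods do not say how many transductions went into each. Cultures were collected daily from day 0 to day 4 and every other day from then to day 14, and the RNA of a line and day was pooled into 1 library, giving 10 libraries per line and no replicate within a day.

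Purine nucleotides are made either anew or by salvage. In the new synthesis, ribose phosphate is activated to phosphoribosyl pyrophosphate (PRPP) by the PRPP synthetases, and the purine ring is then built on PRPP in steps that end in inosine monophosphate (IMP), from which the branches to AMP and GMP lead. HPRT is the salvage enzyme that joins free hypoxanthine or guanine to PRPP and so returns them to IMP and GMP. The loss of HPRT is known for raised PRPP and for faster new synthesis of purines in many cell types, and it causes Lesch-Nyhan disease. The comparison asked how the transcripts of the synthesis enzymes stood when salvage was reduced, and how they moved as the cells differentiated.

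The deposited values give a log2 ratio of normalized read counts between the 2 libraries of a table, and no level. Ratios are HPRT knockdown over control, so that a negative ratio means less transcript in the knockdown, and -1 stands for 1 halving. Errors are standard deviations over 9 days. Day 6 stood apart and is described on its own. It was left out of the tests, a choice taken over from the methods of the pathway analysis. The tests used limma with Benjamini-Hochberg adjustment over the 13436 genes and a threshold of 0.05. Since 1 line was compared with 1 line, a p-value measures how steady a difference was over the days, not over separately made lines. In bulk RNA, fewer cells of a type and less RNA per cell cannot be told apart.

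The knockdown itself was checked at the start. The ratio of Hprt (Gene ID 15452) was below 0 on each of 9 days, averaging -4.002 ± 0.89 (limma adjusted p = 1.21e-05). On day 6 its ratio was -3.42, so the day 6 libraries followed their labels for this gene.

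Of the 10 enzyme genes, 9 were lower in the knockdown by the limma test and none was higher. Among all genes tested 26.5% were called lower and 26.4% higher, and the median of all genes was 0.0062. The median ratio of the 10 was -0.65. For 7 of them, Prps1, Ppat, Gart, Paics, Adsl, Impdh2 and Gmps, the ratio was below 0 on all 9 days, which held for 15.3% of all genes. The 1 gene not called was Prps2.

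**Figure D1:**
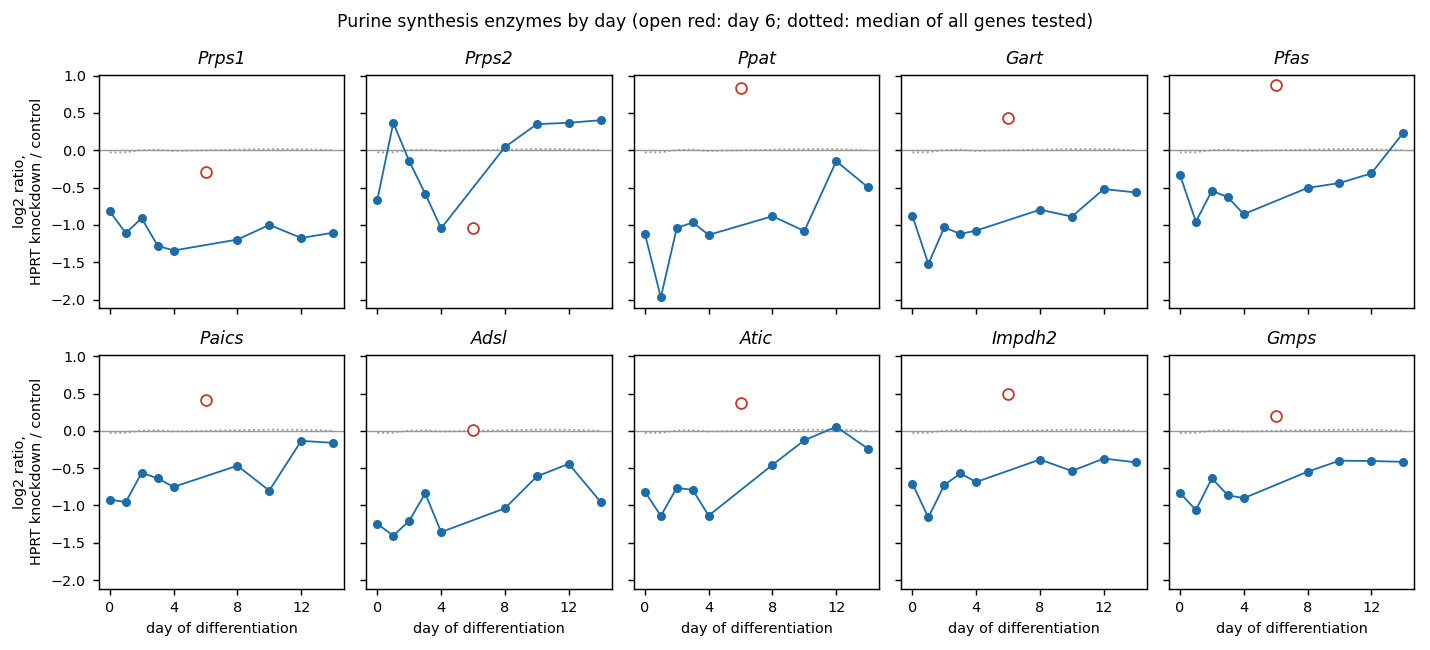
Each panel plots, for 1 enzyme gene, the log2 ratio of HPRT knockdown over control against the day of differentiation, with 1 library per line and day. Blue points are the 9 days tested, the open red point is day 6 and the dotted line is the median of all genes tested. Prps1 stayed between -0.82 and -1.34 on the 9 days, Prps2 crossed 0, and 8 of the 10 genes were above 0 on day 6.

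The first enzymes of the route are the PRPP synthetases, and their 2 genes did not move alike. Prps1 (Gene ID 19139) lies on the plus strand of chromosome X at 136991152 to 137010679 of NCBIM37 (mm9), with 7 exons in its longest coding transcript. Prps2 (Gene ID 110639) is on the minus strand of the same chromosome at 163784254 to 163820681, also with 7 exons. Both encode an enzyme that makes PRPP, and no stretch of 50 exonic bases, the read length, was shared between them. Their promoters are shown because these isozymes differed most. The RefSeq sequences (GRCm38.p6) run from 250 bases before to 50 bases after the annotated start, 5′ to 3′, and capitals mark motifs found on either strand. The motifs searched were the E-box CACGTG, to which Myc binds, and the element CCAAT. Also searched were the GC box GGGCGG, to which Sp1 binds, and the NRF1 core, spelled TGCGCA, and no match of different motifs overlapped in the sequences printed.
Prps1: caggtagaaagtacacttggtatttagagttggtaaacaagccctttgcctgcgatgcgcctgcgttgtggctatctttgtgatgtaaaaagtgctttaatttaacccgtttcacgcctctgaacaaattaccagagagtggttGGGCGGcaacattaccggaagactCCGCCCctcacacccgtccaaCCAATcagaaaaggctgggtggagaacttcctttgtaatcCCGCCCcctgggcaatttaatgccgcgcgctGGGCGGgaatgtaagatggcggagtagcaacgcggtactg
Prps2: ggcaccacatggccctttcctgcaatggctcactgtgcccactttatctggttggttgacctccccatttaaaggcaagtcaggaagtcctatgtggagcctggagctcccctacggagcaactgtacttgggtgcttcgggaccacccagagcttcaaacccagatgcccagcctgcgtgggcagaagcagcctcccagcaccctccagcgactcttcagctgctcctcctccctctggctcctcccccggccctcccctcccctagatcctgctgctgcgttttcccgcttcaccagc
The Prps1 window is chrX:140456353-140456652 on the plus strand, and the Prps2 window is chrX:167382700-167382999 on the minus strand. Prps1 held 4 GC boxes and 1 CCAAT, while none of the searched motifs was in the Prps2 window. A match is a string of letters, not a site shown to be used.

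The daily ratios of Prps1 were -0.82, -1.11, -0.91, -1.28 and -1.34 over days 0 to 4, in that order. On days 8, 10, 12 and 14 they were -1.20, -0.999, -1.17 and -1.10. The 9 values did not come near 0, and their mean of -1.10 ± 0.17 (n = 9 days) is 46.5% of the control, with a limma adjusted p of 1.06e-05. This was the lowest mean and the smallest spread of the 10 genes.

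Those of Prps2 were -0.66, 0.37, -0.15, -0.58 and -1.05 over days 0 to 4. From day 8 on they were above 0, at 0.044, 0.35, 0.37 and 0.40 in the order of the days. The mean was -0.10 ± 0.54 with a 95% interval from -0.47 to 0.27, and it did not pass the limma test (adjusted p = 0.638). The difference between the isozymes, Prps1 minus Prps2, was -1.004 ± 0.54, and Prps1 was the lower on 9 of 9 days. By a two-sided exact permutation test that flips the sign of the daily differences, p was 0.0039 (0.012 adjusted over the 3 isozyme pairs compared), and 9 days allow no smaller value.

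PRPP is then drawn into purine synthesis by Ppat, the amidotransferase of the committed step. Ppat (Gene ID 231327) lies on the minus strand of chromosome 5 at 77342274 to 77380603 (NCBIM37, 11 exons). Its neighbour Paics (Gene ID 67054), which encodes the carboxylase and the synthetase that act later on the same route, lies on the plus strand at 77380332 to 77396534 (9 exons). The 5′ ends of the genes overlap by 272 bases, which are 6.15% of the exonic bases of Ppat and 8.67% of those of Paics. The library kit does not mark strand, so reads in the overlap could not be told apart. Their promoter windows are shown because the genes start side by side and were both lower.
Ppat: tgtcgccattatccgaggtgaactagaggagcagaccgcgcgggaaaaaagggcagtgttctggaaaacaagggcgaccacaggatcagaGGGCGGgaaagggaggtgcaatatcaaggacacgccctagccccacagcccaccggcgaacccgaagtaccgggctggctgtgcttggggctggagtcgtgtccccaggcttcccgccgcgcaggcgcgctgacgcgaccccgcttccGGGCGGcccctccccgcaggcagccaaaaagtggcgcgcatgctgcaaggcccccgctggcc
Paics: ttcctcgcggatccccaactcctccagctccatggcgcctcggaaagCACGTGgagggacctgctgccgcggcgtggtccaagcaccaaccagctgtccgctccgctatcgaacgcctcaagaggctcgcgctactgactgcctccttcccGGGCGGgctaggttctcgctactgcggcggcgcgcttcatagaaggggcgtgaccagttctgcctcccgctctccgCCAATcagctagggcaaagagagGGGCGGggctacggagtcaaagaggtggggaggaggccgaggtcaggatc
The Ppat window is chr5:76951529-76951828 on the minus strand and the Paics window chr5:76951052-76951351 on the plus strand (GRCm38.p6), with the same capitals as above. The annotated starts are 276 bases apart, each inside the transcribed part of the other gene. The 2 windows held 2 GC boxes each, and Paics also held 1 CCAAT and 1 CACGTG.

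Ppat had ratios of -1.12, -1.97, -1.04, -0.97 and -1.13 over days 0 to 4, and of -0.88, -1.08, -0.15 and -0.50 over days 8 to 14. Day 1 held the lowest ratio of any of the 10 genes on any day. The mean was -0.98 ± 0.50, or 50.6% of the control (limma adjusted p = 0.000672).

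Paics had -0.92, -0.96, -0.56, -0.64 and -0.75 over days 0 to 4, and -0.47, -0.80, -0.13 and -0.16 over days 8 to 14. Its mean was -0.60 ± 0.30, or 66.02% of the control (limma adjusted p = 0.000972). Paics stood closer to the control than Ppat by 0.38 ± 0.27 and did so on 9 of 9 days.

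Between these lie the ring-building enzymes. Gart (Gene ID 14450, chromosome 16, 91621431 to 91647197, minus strand, 22 exons), which encodes a protein with 3 enzyme activities of the route, had its lowest ratio of -1.52 on day 1, a median of -0.89 and its highest ratio of -0.52 on day 12. All 9 were below 0, the mean was -0.93 ± 0.31 and the gene stood at 52.4% of the control (limma adjusted p = 0.000117). An annotated gene on the other strand, Gm15964, overlaps 16.9% of the exonic bases of Gart.

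Pfas (Gene ID 237823, chromosome 11, 68799199 to 68824788, minus strand, 28 exons), the amidine synthase that takes nitrogen from glutamine, was the least lowered of the genes called. Its ratios over days 0 to 4 were -0.33, -0.96, -0.54, -0.63 and -0.86, and those over days 8 to 14 were -0.50, -0.44, -0.31 and 0.23. The ratio was below 0 on 8 of 9 days with a mean of -0.48 ± 0.35, or 71.6% of the control (limma adjusted p = 0.00566). With day 6 kept in the fit the mean was -0.35 and the call was lost (adjusted p = 0.0976).

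The last steps to IMP belong to Adsl and Atic. Adsl (Gene ID 11564, chromosome 15, 80778920 to 80801377, plus strand, 13 exons) is the lyase that acts both here and again on the way to AMP. It had ratios of -1.25, -1.41, -1.21, -0.84 and -1.36 over days 0 to 4 and of -1.04, -0.61, -0.44 and -0.95 over days 8 to 14, with the lowest on day 1. The mean of -1.01 ± 0.33 is 49.6% of the control (limma adjusted p = 0.00011).

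Atic (Gene ID 108147, chromosome 1, 71603724 to 71626205, plus strand, 16 exons), which encodes the formyltransferase and cyclohydrolase that close the ring, was nearest to the control on day 12. Over days 0 to 4 its ratio was -0.81, -1.14, -0.76, -0.79 and -1.14, but over days 8 to 14 it was -0.46, -0.13, 0.055 and -0.24. Over the 9 days the mean was -0.60 ± 0.43, or 65.9% of the control (limma adjusted p = 0.00468).

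Beyond IMP the branch to GMP uses IMP dehydrogenase and GMP synthetase. Impdh2 (Gene ID 23918, chromosome 9, 108462774 to 108467895, plus strand, 14 exons), the dehydrogenase that dividing cells mainly use, ranged from -1.16 on day 1 over a median of -0.57 to -0.37 on day 12. Its mean was -0.62 ± 0.25, or 65.1% of the control (limma adjusted p = 0.000386). Its value is uncertain in 1 respect. Of its 995 windows of 50 exonic bases, 909 (91.4%) also occur on chromosome 8 at 102554387 to 102556047, where Gm15210 is annotated, and how reads with several matching places were counted is not given in the sources used here.

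Gmps (Gene ID 229363, chromosome 3, 63780028 to 63826501, plus strand, 16 exons), which completes GMP, ranged from -1.06 on day 1 over a median of -0.64 to -0.40 on days 10 and 12. The mean was -0.67 ± 0.25, or 62.7% of the control (limma adjusted p = 0.000264). All 9 ratios of both genes were below 0, and the 9 days of each spanned less than 1 log2 unit. Shares of windows found elsewhere in the genome were 9.51% for Gmps, 6.73% for Prps1 and 6.60% for Paics, and at most 4.91% for the other 6 genes without Impdh2.

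**Figure D2:**
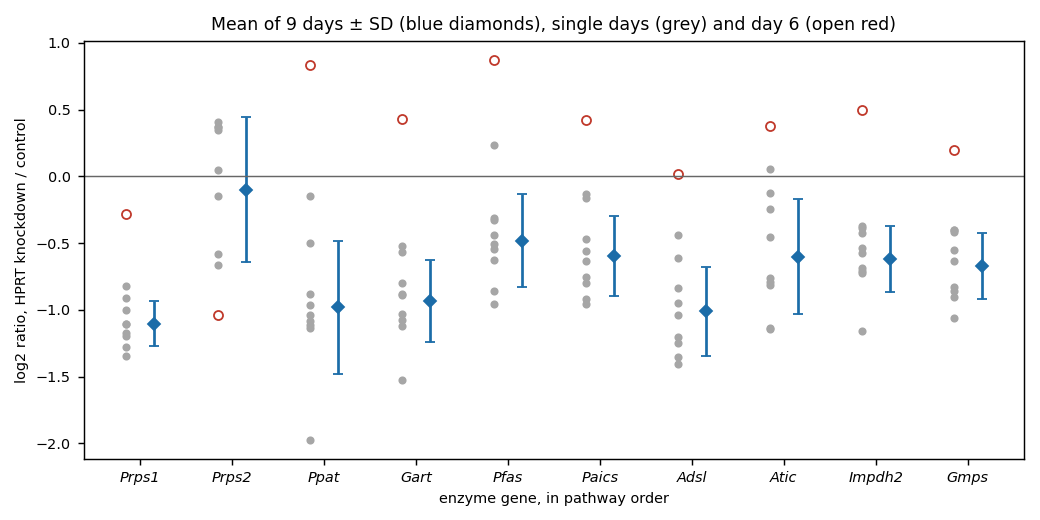
The vertical axis is the log2 ratio of HPRT knockdown over control and the horizontal axis lists the 10 enzyme genes in pathway order. Grey points are the 9 days tested, blue diamonds with bars their mean ± SD, and open red points day 6. Only the bar of Prps2, at -0.10 ± 0.54, crosses 0.

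Ordered by mean ratio, Prps1 at -1.10 was followed by Adsl at -1.01, Ppat at -0.98 and Gart at -0.93, and then by Gmps at -0.67, Impdh2 at -0.62, Atic at -0.60, Paics at -0.60, Pfas at -0.48 and Prps2 at -0.10. Neighbours in this order differed by less than the SD of their difference over the days, except Gart and Gmps, where Gart was lower by 0.26 ± 0.16 and on 9 of 9 days. Prps1 and Adsl differed by 0.093 ± 0.39, Adsl and Ppat by 0.029 ± 0.35, and Ppat and Gart by 0.049 ± 0.24. The last step, from Pfas to Prps2, was 0.38 ± 0.52.

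The ratio was followed over time by its slope on day, which tests whether the 2 lines changed differently. Only the slope of Atic passed, at 0.073 per day (limma adjusted p = 0.0256, 95% interval 0.035 to 0.11), where 7.35% of all genes were called with a rising ratio. The mean ratio of Atic was -0.93 ± 0.19 over the 5 days from 0 to 4, or 52.5% of the control, and -0.19 ± 0.21 over the 4 days from 8 to 14, or 87.5%. This call was lost with day 6 kept (adjusted p = 0.117), without day 1 (0.0548), without day 10 (0.0554), without day 12 (0.0845) or with the slope taken on log2(day + 1) (0.0662).

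For 8 other genes the slope of the ratio was positive and did not pass, from 0.036 per day for Impdh2 (adjusted p = 0.114) to 0.071 for Ppat (0.074). The nearest to the threshold was Gmps at 0.042 (adjusted p = 0.053), whose mean ratio was -0.86 over days 0 to 4 and -0.44 over days 8 to 14. Prps1 was the 1 gene with a slope near 0, at -0.0079 per day with a 95% interval from -0.040 to 0.024, and its mean ratio was -1.09 over days 0 to 4 and -1.12 over days 8 to 14.

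Counted by day, and with a ratio of at least 1.5-fold as the limit, the counts of lower genes among the 10 were 9, 9, 7, 8 and 10 for days 0 to 4, where 19.5%, 24.5%, 17.2%, 15.6% and 16.4% of all genes were. The later counts were 4, 5, 1 and 2 genes for days 8, 10, 12 and 14, beside 13.7%, 19.1%, 18.6% and 18.8% of all genes. From day 12 on the share among the 10 was thus near that of all genes. No gene of the 10 was 1.5-fold higher on any of these 9 days, while 17.3% to 22.3% of all genes were. The gene lower on day 12 was Prps1, and those lower on day 14 were Prps1 and Adsl.

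Each line was then followed by itself, by adding up the steps between consecutive days. These sums join tables that were normalized separately. The days are successive collections of 1 line, not independent cultures, so the p-values of these slopes do not measure variation between cultures. In the control line 9 of the 10 genes fell over the course by limma, beside 23.8% of all genes, and Prps1 was the exception. The steepest were Ppat at -0.11 per day (95% interval -0.16 to -0.066, adjusted p = 0.00256), Gart at -0.10 (adjusted p = 0.00587) and Atic at -0.097 (adjusted p = 0.00181). The flattest of the genes called was Impdh2 at -0.044 (adjusted p = 0.0078). Prps1 had a slope of -0.032 per day (adjusted p = 0.198). On log2(day + 1) in place of day, only Paics, Adsl, Atic and Gmps remained called.

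In the knockdown line 1 of the 10 genes, Pfas, fell at -0.047 per day (limma adjusted p = 0.0451), beside 5.39% of all genes. That call was lost with day 6 kept (adjusted p = 0.271) and when any one of days 2, 3, 4, 8, 10, 12 or 14 was left out. The other 9 slopes were negative too, from -0.017 for Impdh2 (adjusted p = 0.502) to -0.057 for Gart (adjusted p = 0.115), and none of them passed. A pass in one line and none in the other is not a difference between the lines, and the test of that difference is the slope of the ratio given above.

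**Figure D3:**
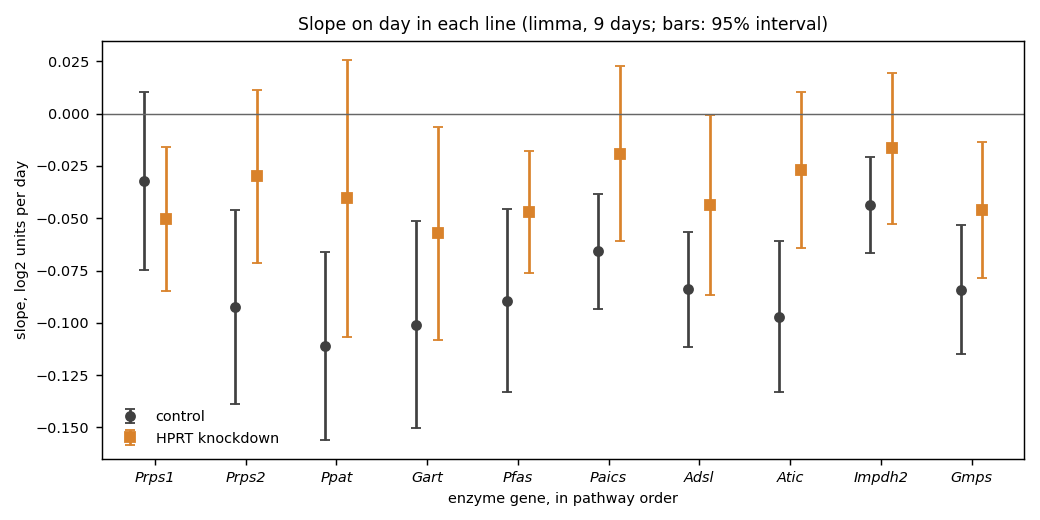
The vertical axis is the slope on day in log2 units per day and the horizontal axis the 10 enzyme genes in pathway order, with circles for the control line and squares for the HPRT knockdown line. Bars are 95% intervals from limma over 9 days. All slopes are below 0, and the control slope is the steeper of the pair for every gene but Prps1.

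Relative to its own day 0, the control line stood on day 14 at -1.34 for Ppat, -1.29 for Gart, -1.11 for Pfas, -1.06 for Adsl, -0.97 for Paics and Prps2, -0.93 for Gmps, -0.90 for Atic, -0.67 for Prps1 and -0.61 for Impdh2. The knockdown line, which had begun lower, stood at -0.71 for Ppat, -0.99 for Gart, -0.58 for Pfas, -0.82 for Adsl, -0.19 for Paics, -0.54 for Gmps, -0.34 for Atic, -1.05 for Prps1 and -0.40 for Impdh2. Prps2 was at 0.098 there, the only value of the 20 above 0. Prps1 was the only gene with the larger day 14 decline in the knockdown line.

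On day 4 the control line was still at or above its start. All 10 genes had a positive control value relative to day 0, from 0.14 for Impdh2 to 0.51 for Pfas. The control steps from day 8 to 10 were negative for all 10 genes (median -0.33), and those from day 12 to 14 for 9 of 10 (median -0.34).

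**Figure D4:**
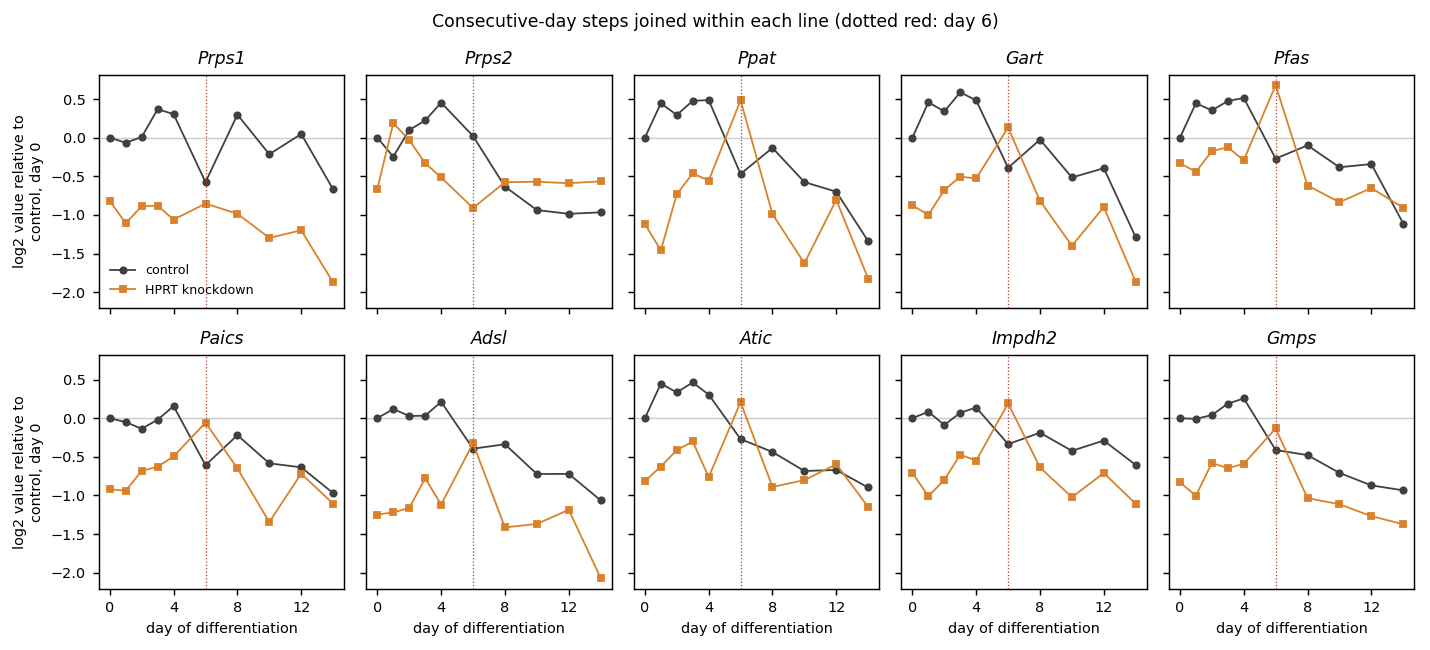
Each panel plots, for 1 enzyme gene, the log2 value of the control line (circles) and of the HPRT knockdown line (squares) relative to the control on day 0, against the day of differentiation. Each point is 1 library, joined over tables of consecutive days, and the dotted line marks day 6. On day 6 the knockdown point lies above the control point in 8 of the 10 panels.

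Day 6 was apart from its neighbours for most of these genes. The ratio was 0.87 for Pfas, 0.83 for Ppat, 0.50 for Impdh2, 0.43 for Gart, 0.42 for Paics, 0.38 for Atic, 0.19 for Gmps and 0.014 for Adsl, so 8 of 10 were above 0. The others were Prps1 at -0.28, its value nearest to 0 on any day, and Prps2 at -1.04. Pfas and Ppat were at least 1.5-fold higher, as 10.9% of all genes were, and Prps2 was at least 1.5-fold lower, as 15.2% were.

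Both lines took part in this shift, in opposite directions. From day 4 to day 6 the control step was negative for all 10 genes, with a median of -0.72 and a range from -0.96 for Ppat to -0.43 for Prps2. The knockdown step was positive for 9 of 10, with a median of 0.70 and a highest value of 1.04 for Ppat, and was -0.40 for Prps2. From day 6 to day 8 the knockdown step was negative for 9 of 10 genes, with a median of -0.93, and the control step was positive for 7 of 10, with a median of 0.16. The medians of all genes in these 4 steps lay between -0.019 and 0.012. MCM and replication genes shifted on the same day, with a median ratio of 0.58 on day 6 after -0.82 on day 4, and so did the pluripotency markers, at 0.26 after -1.45. Their part in the day 6 values was not tested.

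Among themselves, the 8 genes other than the PRPP synthetases followed similar courses over the 9 days. Pearson's r of their ratios lay between 0.46 and 0.95 in the 28 pairs, with a median of 0.77. With the median of the other 9 genes, r was 0.94 for Atic, 0.92 for Gmps and 0.90 for Gart, against 0.55 for Prps2 and 0.076 for Prps1. These r values describe 9 days whose points share their libraries, and neighbouring days belong to the same line.

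The remaining genes of the route were lower as well. Of 7 listed, 5 passed the filter on low values, while Prps1l1 and Prps1l3 were at 0 in all tables. All 5 were called lower by limma, beside 26.5% of all genes, with a median of -0.34. Adss, the adenylosuccinate synthetase of most tissues on the branch to AMP, was at -0.49 ± 0.11 (limma adjusted p = 0.000169, lower on 9 of 9 days). Its muscle isozyme Adssl1 was at -1.06 ± 0.90 (adjusted p = 0.00814, lower on 8 of 9 days). Impdh1, the other IMP dehydrogenase, was at -0.34 ± 0.37 (adjusted p = 0.0357, lower on 6 of 9 days), a call that was lost without any one of days 1, 2, 3, 4 or 8 and by the exact sign-flip permutation test (adjusted p = 0.0594). Prpsap1, which encodes a protein bound to the PRPP synthetases, was at -0.33 ± 0.20 (adjusted p = 0.00484).

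The isozymes of IMP dehydrogenase and of adenylosuccinate synthetase did not differ beyond their spread in these tests. Impdh2 minus Impdh1 was -0.27 ± 0.40, with Impdh2 lower on 6 of 9 days (exact sign-flip p = 0.078, adjusted 0.098). Adss minus Adssl1 was 0.57 ± 0.92 (exact sign-flip p = 0.098, adjusted 0.098).

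Genes around the route were mixed. The counts in this and the following lists stand beside 26.4% of all genes called higher and 26.5% called lower by limma. Whether a list departed from these shares was not tested. Of 11 tested genes of purine nucleotide kinases and interconversion, 4 were higher and 3 lower, with a median of -0.031. Ampd3, an AMP deaminase that returns AMP to IMP, was at 1.48 ± 1.08 (limma adjusted p = 0.00382), and Gmpr, the reductase that returns GMP to IMP, at 0.95 ± 0.46 (adjusted p = 0.000593), both higher on 9 of 9 days. Nme2, a kinase that phosphorylates nucleoside diphosphates, was at -0.32 ± 0.29 (adjusted p = 0.0203). Of 10 tested genes of purine salvage and breakdown, 1 was higher and 3, Hprt included, were lower, with a median of -0.37. Nt5e, the ectoenzyme that makes adenosine from AMP, was at 1.28 ± 0.58 (adjusted p = 0.000377), and Dguok, which salvages deoxyguanosine in mitochondria, at -0.49 ± 0.26 (adjusted p = 0.00157).

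The supply of ribose phosphate, by 8 genes, had 2 higher and 1 lower and a median of 0.068. Of 19 genes of serine and folate metabolism, which gives the formyl groups used by Gart and Atic, 4 were higher and 8 lower, with a median of -0.17. Aldh1l2, a mitochondrial folate dehydrogenase, was at 1.05 ± 0.61 (limma adjusted p = 0.00127). Shmt1, the cytosolic serine hydroxymethyltransferase, was at -1.20 ± 0.41 (adjusted p = 0.000114), and Tyms, the thymidylate synthase, at -0.98 ± 0.65 (adjusted p = 0.00247).

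Other routes of nucleotide and DNA synthesis were also lower. Pyrimidine synthesis had 4 of 6 genes lower and none higher, with a median of -0.50, among them Ctps at -0.77 ± 0.33 (limma adjusted p = 0.000404) and Cad at -0.65 ± 0.30 (adjusted p = 0.000602). Deoxynucleotide supply had 5 of 7 lower and none higher, with a median of -0.55 and Rrm2, the ribonucleotide reductase subunit of dividing cells, at -1.07 ± 0.38 (adjusted p = 0.000136). All 12 MCM and replication genes were lower, with a median of -0.96. Mcm3 was at -1.36 ± 0.39 (adjusted p = 5.1e-05).

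**Figure D5:**
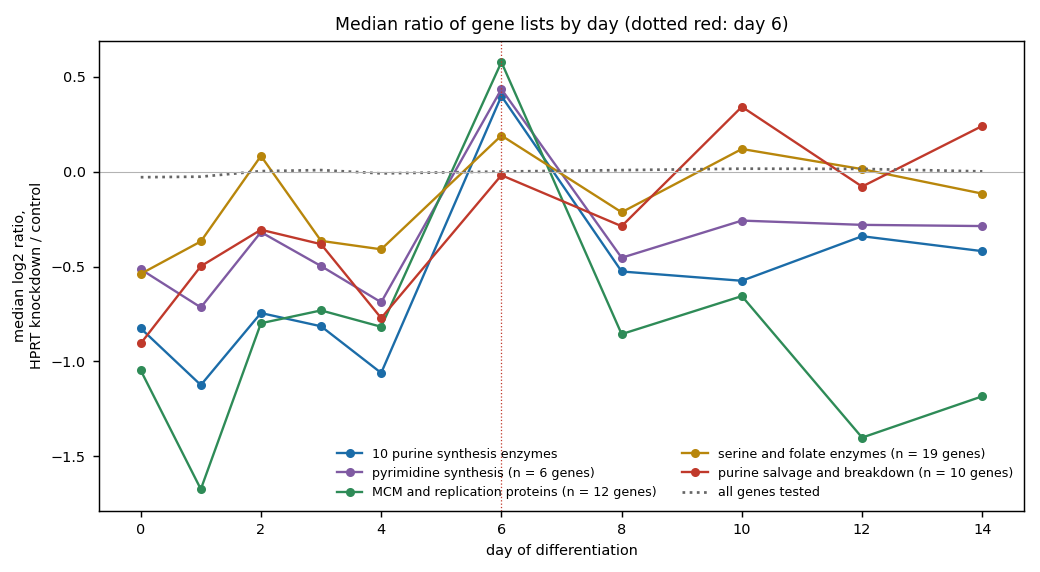
The vertical axis is the median log2 ratio of HPRT knockdown over control in each gene list and the horizontal axis the day of differentiation. The median of the 10 purine synthesis enzymes went from -1.06 on day 4 to 0.40 on day 6 and -0.53 on day 8. MCM and replication genes ended at -1.18 on day 14, the enzymes at -0.42.

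Of the 7 genes of the Myc family and Atf4, transcription factors known to act on nucleotide synthesis genes, 2 were higher and 3 lower. Mycn was at -2.46 ± 1.23 (limma adjusted p = 0.000507, lower on 9 of 9 days), with -5.18 on day 1 and between -3.87 and -1.51 on the other 8 days. Myc was at 1.04 ± 1.12 (adjusted p = 0.0244), higher on 7 of 9 days, with -0.66 on day 0 and 2.73 on day 12, and its call was lost without any one of days 8, 10, 12 or 14 and by the exact sign-flip permutation test (adjusted p = 0.0536). Mxi1, an antagonist of Myc, was at 0.60 ± 0.47 (adjusted p = 0.00671).

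Across the 32851 mouse promoters of the RefSeq table, CACGTG was found in 7.15%, CCAAT in 37.4%, GGGCGG in 35.7% and TGCGCA in 7.76%. Of the 9 enzyme genes with a promoter in that table, 3 held CACGTG (Atic, Paics and Impdh2), 5 held CCAAT, 8 held GGGCGG and none held TGCGCA. No promoter of Pfas was used here.

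Pluripotency, glia and neuron markers differed between the lines, while the other marker lists had fewer genes called. All 8 neural progenitor markers and 6 of the 7 neuron markers in the files passed the filter. So did all 8 pluripotency, all 8 glia and all 8 feeder fibroblast markers, so passing it does not single out a cell type. All 8 pluripotency markers were lower in the knockdown, with a median of -2.71 and daily medians from -7.57 on day 1 to -1.05 on day 0 among the 9 days. Of 8 glia markers 5 were higher and none lower, with a median of 1.75 and daily medians from 0.42 to 4.53. Neuron markers had 4 of 6 lower (median -1.46), progenitor markers 2 higher and 1 lower of 8 (median 0.037), feeder fibroblast markers 1 higher and 2 lower of 8 (median -0.38), and endothelial and blood markers 1 lower of 5 (median -0.50), with Hba-a1 and Hbb-b1 at 0 in all tables. Over the 9 days, Pearson's r between the median ratios of the enzymes and of the MCM and replication genes was 0.075. With the median of the pluripotency markers it was 0.36, with Mycn 0.35 and with Myc 0.78. The part of these cell types and of the replication genes in the enzyme ratios was not tested.

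By likeness of course, 5 genes outside all lists were nearest to the median ratio of the 10 enzymes over the 9 days, among the 8113 genes whose typical log2 count was 8 or more. They were Cebpz (r = 0.97, mean ratio -0.47), Tbrg4 (r = 0.97, -0.55), Gnl3 (r = 0.97, -0.83), Exosc7 (r = 0.97, -0.84) and Prmt5 (r = 0.97, -0.64). Their ratios on day 6, a day that the likeness did not use, were above 0, from 0.18 for Tbrg4 to 0.73 for Gnl3. On that day the median of all genes was 0.00083 and that of the MCM and replication genes 0.58. A ratio above 0 there was thus not particular to these genes.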

How the data were processed

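The authors made RNA-seq libraries with a TruSeq kit, sequenced 50 bases, aligned the reads with ELAND in CASAVA 1.8.2 to NCBI37/mm9 and counted genes in Avadis NGS with DESeq normalization. They deposited 28 tables of 2 libraries each with log2 normalized counts from which the mean of the 2 libraries had been subtracted. Only log2 ratios can be read from them, and each table was normalized by itself. A pseudocount could therefore not be varied. The study's methods give an average read number, but library totals were not analysed here. The depth of each library is therefore unknown and no counting interval is given. Low genes are the least precise. Which lane held which library could not be examined. Gene positions and exons are those of gencode M1 on NCBIM37, and exonic windows of 50 bases were searched in that genome for exact copies.

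A gene passed the filter when the rounding step of its values, over the 28 tables, matched a log2 normalized count of 4 or more (13436 genes); all 10 enzyme genes had one between 8 and 16. Groups and days came from the labels. Limma 3.58.1 (R 4.3.3) was fitted to all genes past the filter: the mean of the 9 daily ratios, the slope of the ratio on day, and the slope of each line. Both libraries of a day form a pair, since the day is shared by label; deviations of paired libraries from their line means had r from -0.020 on day 0 to 0.43 on day 3. Loops of 4 tables closed within 1e-05 for at least 91.4% of genes in 8 of 9 loops, and for 0.0298% between days 3 and 4, where the 10 genes left at most 0.08.

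The 10 genes, the other lists and the rule for named genes (all 10; in each list up to 2 highest and 2 lowest mean ratios among genes called with 1 sign on 9 days; Impdh1, Adss, Adssl1, Hprt, Myc and Mycn in any case) were chosen with earlier results of these data known. Alternatives were other filters, day 6 kept, each day left out, centring, unpaired and exact tests, another route through the tables and log2(day + 1). Of the genes that this rule names, 1 is not reported here.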

Additional observations from a re-analysis of the deposited data

Results flagged for a closer look

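Of the 10 enzyme genes tested for a day far from the other 9, 4 had one, and it was day 6 for each. The log2 ratio on that day was -0.28 for Prps1, 0.43 for Gart, 0.50 for Impdh2 and 0.19 for Gmps, in each case the highest of the 10 days, with a gap to the next day of 0.47 to 0.52 of the whole range. Chance alone would give such a gap in about 1 of 20 groups, but the genes share their libraries and day 6 was known to stand apart. The share of all genes with such a day was not counted, so the 4 cannot be read as particular to these enzymes. The slope of the ratio of Atic on day, 0.073, was the 1 slope that differed between the lines by test.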

How the results depend on the processing

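The 9 enzyme genes called lower kept their direction under all alternatives, and 9 of 10 were called in each except with day 6 kept and with no replicate block (the lines compared without pairing by day), where 8 were. Pfas was the gene lost, at -0.35 and at -0.47 (limma adjusted p = 0.0606 without the block); with no block 5753 genes were called in place of 7108. Leaving out single days gave 9 of 10 throughout and 6232 to 7234 genes, and the mean of Prps2 ranged from -0.16 to 0.018, above 0 without day 4. Slopes were less stable. For the slope of the ratio, 1 enzyme gene of 1888 genes was called, and none of 1057 with day 6 kept; 2 enzyme genes passed with no filter, 3 with the filter at a log2 count of 8 and 0 on log2(day + 1). Leaving out single days gave 0 to 2 enzyme genes and 603 to 1658 genes, and the slope of Prps1 ranged from -0.012 to 0.0016, above 0 without day 0. For the control slope, log2(day + 1) gave 4 enzyme genes and 3826 genes, in place of 9 and 5828. For the knockdown slope, 1 enzyme gene and 1708 genes became 0 with day 6 kept, 3 with the filter at 8, 0 and 129 genes on log2(day + 1), and 0 to 3 and 206 to 2907 genes with single days left out, lowest for genes without day 14 and highest without day 0. The cause of these changes was not tested. Without the depth of each library, a gene's counting error could not be set beside its spread over days.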
